A study of Homo sapiens with 34 samples.

Results

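Olfactory receptor genes on autosomes other than chromosome 11 were examined in 34 lists of peaks from CUT&Tag with an anti-H3K9me antibody, an assay in which a transposase tethered by an antibody cuts and tags the marked chromatin. The set held 218 of the 19974 protein-coding genes of the autosomes and the X chromosome. Its genes were taken by the form of their symbol (OR, a family number, letters and a second number) from RefSeq on hg38 (GRCh38.p14). This rule uses no measured value, but the set was chosen with earlier results of these data known. OR4K17 and OR7E24 were named beforehand as recurrent, so naming them here is not independent of the data. A gene counted as carrying a peak in a list when at least 1 bp of a peak lay in the gene or in the 2 kb on either side, and this stretch is called its window.

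The libraries came from PC3 DM, a line from a prostatic adenocarcinoma, and COLO320 DM, a line from a colorectal adenocarcinoma. Both are known for carrying the oncogene MYC on extrachromosomal DNA. Each library used 50000 nuclei, collected 3 days after transfection with 700 ng of a plasmid for a guide RNA. PC3 DM gave 16 libraries, of which 2 had the empty vector, 3 each had ecSE1, ecSE2, ecSE6 and the combination ecSEcombo, and 2 had ecSE7. COLO320 DM gave 18 libraries: ecSE1, ecSE2, ecSE3, ecSE4, ecSEcombo and the empty vector had 3 each. The labels do not give the degree of H3K9 methylation that the antibody binds, the positions of the ecSE elements, or whether replicates were separate cultures, and p-values therefore reflect only the variation among libraries, some of which may be technical.

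Olfactory receptors are G protein-coupled receptors that bind odorants in the nose. Their genes form one of the largest families in mammals and lie in clusters on many chromosomes. A mature olfactory sensory neuron expresses a single receptor allele, and the receptor genes it does not use sit in compact chromatin that carries methylated H3K9. In most other cell types the receptor genes are silent. Nearly all have short coding regions without introns, and receptors of one family share much of their sequence, so short reads can match several copies. The sources used here do not say how such reads were handled.

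The lists held 9385 to 125214 peaks. Only 2 had more than 100000: PC3 DM ecSEcombo replicate 1, with 102290, and COLO320 DM ecSE1 replicate 2, with 125214. The depth of the libraries is unknown, and results are given for the lists as deposited and for the 9385 best peaks of each list, called equal list length. PDX1 (chr13:27920000-27926313), which encodes a transcription factor of pancreas and duodenum, had a peak in 18 of 18 COLO320 DM lists and in 0 of 16 PC3 DM lists at equal list length. It was taken because earlier results of these data showed this difference, so it describes how the labelled lines part and is no independent check of the labels.

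Most receptor genes carried a peak in few lists. In the lists as deposited, 166 of the 218 genes had a peak in at least 1 list and 52 had one in none. Peaks occurred in 1 to 4 lists for 114 genes, in 5 to 16 for 41 and in 17 or more for 11. The median gene had a peak in 2 lists, against 3 for all protein-coding genes. Among the best peaks, 72 receptor genes had a peak in any list, 146 had none, and 5 had one in 17 lists or more. The genes with no peak in any list had a median window of 5324 bp and those in 17 lists or more one of 29202 bp. Across the 218 genes, window length and the number of lists with a peak had a Spearman rho of 0.48 in the lists as deposited and 0.38 at equal list length. These genes share libraries and in part share sequence, so the values are descriptions.

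The share of receptor genes with a peak followed the length of the list. In PC3 DM lists as deposited it ran from 2.75% through a median of 12.2% to 35.3%, with a mean of 13.4% ± 8.54 (SD, n = 16). In COLO320 DM it ran from 4.59% through 7.80% to 37.6%, with a mean of 9.28% ± 7.37 (SD, n = 18). The highest value in each line belonged to its list of over 100000 peaks, and without these lists the means were 11.9% ± 6.45 (SD, n = 15) and 7.61% ± 2.13 (SD, n = 17). Over libraries, list length and this share had a Spearman rho of 0.97 in PC3 DM and 0.69 in COLO320 DM, given as a description. The ranges of the lines overlapped over most of their length.

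At equal list length the lines lay close together. The share of receptor genes with a peak was 3.64% ± 0.811 in PC3 DM (SD, n = 16; lowest 2.75%, median 3.44%, highest 5.05%). In COLO320 DM it was 4.00% ± 1.05 (SD, n = 18; lowest 2.75%, median 3.67%, highest 5.96%). The difference of the means was smaller than the SD in either line. Over all protein-coding genes the same share was 10.4% ± 0.791 in PC3 DM and 8.61% ± 0.356 in COLO320 DM. The 171 olfactory receptor genes of chromosome 11 gave 3.51% ± 1.51 and, in COLO320 DM, 1.30% ± 0.765.

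**Figure D1:**
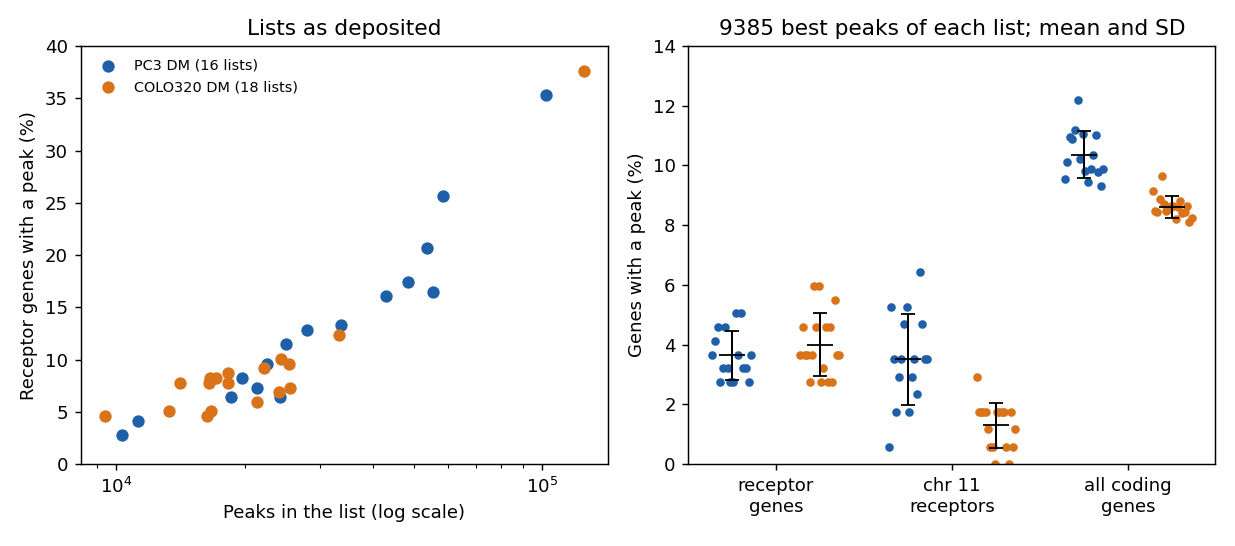
Left, the percentage of the 218 receptor genes with a peak against the number of peaks in the list (log scale), 1 point per list; right, the percentage with a peak among the 9385 best peaks of each list for these genes, the chromosome 11 receptors and all protein-coding genes, with mean and SD per line (blue PC3 DM, orange COLO320 DM). The share rises with list length up to 35.3% and 37.6%, while at equal list length the receptor genes average 3.64% and 4.00%.

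Receptor windows were short, with a median of 9188 bp against 28170.5 bp over all genes, and a longer window has more room for a peak. Counted per length at equal list length, the merged receptor windows held 3.22 ± 0.764 peaks per Mb in PC3 DM (SD, n = 16), against 2.47 ± 0.140 in the windows of all genes. The COLO320 DM lists gave 4.05 ± 1.28 peaks per Mb (SD, n = 18), against 2.13 ± 0.0546. The chromosome 11 receptors held 3.62 ± 1.49 peaks per Mb in the PC3 DM lists and 1.37 ± 0.806 in those of COLO320 DM. So the receptor genes stood below all genes in the share of genes with a peak and above them in peaks per Mb. A few recurrent sites supplied part of these peaks. The main sites of OR14A2, OR1L4, OR1F1 and OR4K17 were among the best peaks of 15, 18, 16 and 17 COLO320 DM lists. In PC3 DM they were among those of 11, 5, 4 and 0 lists. Neither the densities nor the shares by class below were computed without these sites. Within classes of window length the receptor genes had the higher mean share in each class and line. For windows of 20 kb or more, 18.5% ± 6.24 of 21 receptor genes had a peak in PC3 DM, against 16.0% ± 1.29 of 12108 genes in all. For these long windows COLO320 DM gave 19.0% ± 6.93 against 13.3% ± 0.556. For windows under 6 kb, 91 receptor genes gave 1.65% ± 1.13 in PC3 DM, against 0.987% ± 0.292 of 1247 genes in all. The short windows gave 2.14% ± 0.959 in COLO320 DM, against 0.909% ± 0.172. Between these sizes, from 6 to 20 kb, 106 receptor genes gave 2.42% ± 1.69 in PC3 DM, against 1.74% ± 0.121 of 6619 genes in all. That class gave 2.62% ± 1.05 in COLO320 DM, against 1.41% ± 0.103. The gap was within 1 SD of the receptor genes' share in every class of PC3 DM and in the longest class of COLO320 DM.

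The receptor with the most recurrent peak was OR14A2, a gene of the large cluster at the end of the long arm of chromosome 1 (chr1:247722957-247748158, minus strand). It had a peak in 34 of 34 lists as deposited. Among the best peaks of each list it had one in 14 of 16 PC3 DM lists and 15 of 18 COLO320 DM lists (Fisher exact test, adjusted p = 1). The best peaks covered 0 to 800 bp of its window in PC3 DM, with a median of 470.5 bp, and 0 to 687 bp in COLO320 DM, with a median of 481.5 bp. The lines overlapped over nearly the whole range. The peaks gathered at 1 site, chr1:247749441-247750538, before the start of the gene, which was present in 30 lists, 13 of PC3 DM and 17 of COLO320 DM. At that site the authors' fold enrichment over the local background had a median of 8.08 in the PC3 DM lists (5.30 to 9.49) and 6.83 in the COLO320 DM lists (5.27 to 9.85). Each fold belongs to its own list, and the values of the lines were not compared. A second site past the other end of the gene, chr1:247720444-247721122, was found in 6 PC3 DM lists and in 0 COLO320 DM lists.

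OR2L13, of the same cluster (chr1:247937177-248101163, plus strand), had a peak in 32 lists, 16 of each line. Its window is the longest of the set at 167987 bp and overlaps the windows of 6 other receptor genes. Its peaks were spread over several sites. The site chr1:248009965-248010889 was found in 11 PC3 DM and 3 COLO320 DM lists, and the site chr1:248026622-248028214 in 9 and 3. The site chr1:248006093-248006801 was found in 0 PC3 DM and 5 COLO320 DM lists. Both lines thus had peaks in this gene, at several sites.

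After these came OR1L4 with 26 lists, OR1F1 with 25, OR4K17 with 23, OR6J1 with 21, OR10J1 and OR1J2 with 20 each, OR6N1 with 18, and OR3A2 and OR13C8 with 17 each. OR2AP1 (chr12:55572468-55575612) and OR2C1 (chr16:3322931-3358137) followed with 16 each. All are odorant receptors, placed in families by the first number of the symbol. Of these genes, OR1J2 (chr9:122447433-122580427), OR3A2 (chr17:3276113-3386308), OR6N1 (chr1:158764236-158840396) and OR10J1 have windows of 47503 to 136995 bp, and OR1L4 and OR13C8 have short ones of 4936 and 4963 bp.

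**Figure D2:**
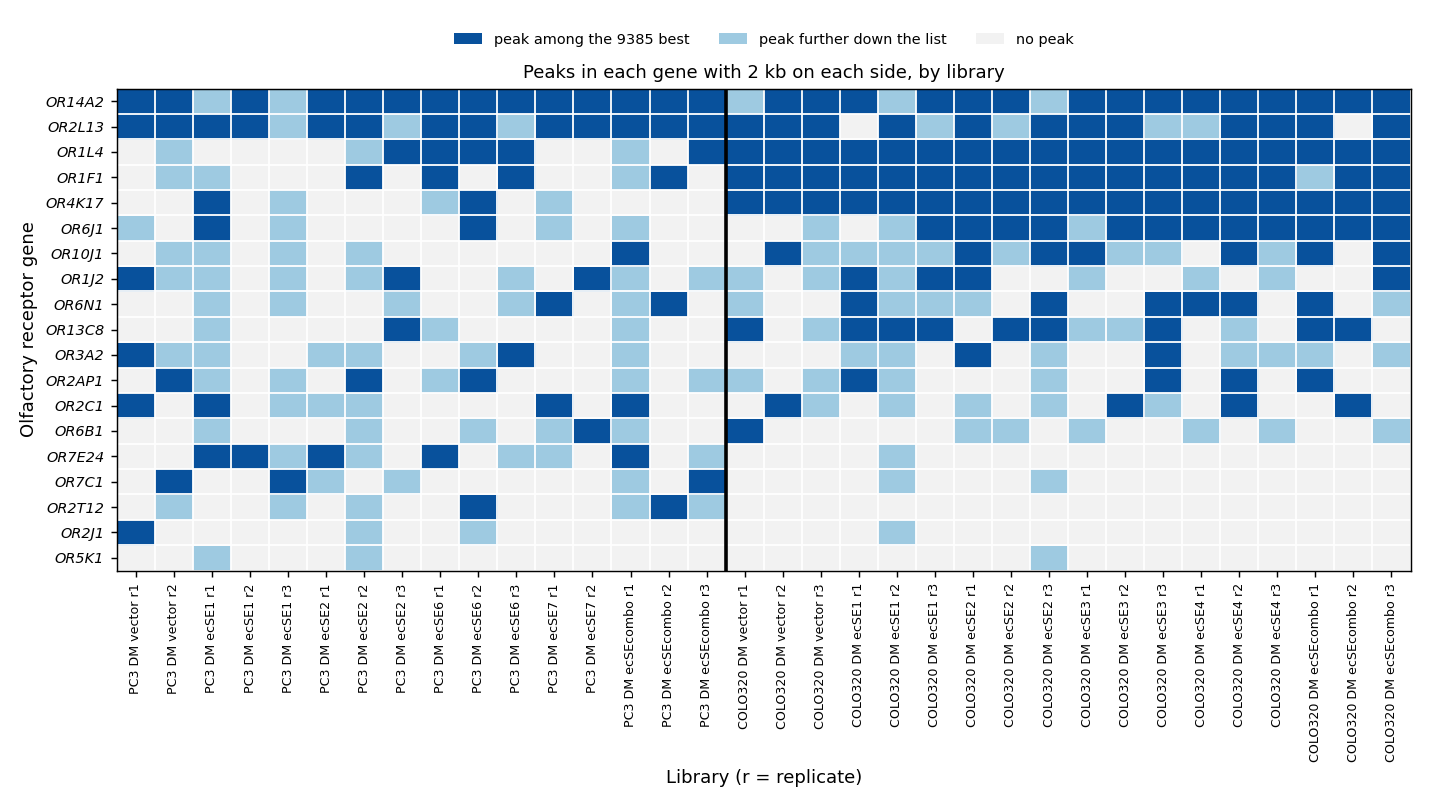
Each row is a receptor gene and each column a library; dark blue marks a peak among the 9385 best of that list, light blue a peak further down the list, and grey none. OR14A2 has a peak in all 34 lists, while OR4K17, OR1L4 and OR1F1 are filled across the 18 COLO320 DM columns and in 5, 8 and 7 of the 16 PC3 DM columns.

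Most sequences before the start of the receptor genes were poor in CG, and a few were rich in it. For 176 of the 218 receptor genes the RefSeq table of GRCh38.p14 gave 185 promoters. The 250 bases upstream had a median of 1 CG dinucleotide and a GC content of 38%, against 16 CG and 62% for 21983 promoters of protein-coding genes. Only 4 of the 185 held 10 or more CG: 2 of OR1F1, 1 of OR2L13 and 1 of OR3A2. The 4 sequences below belong to the receptors in the most lists for which the table gives one, and include both poor and rich ones. They do not stand for the 185, of which nearly all were poor in CG. They run 5′ to 3′ on the strand of the gene and end at the base before the start given for that promoter, with every CG in capitals. For OR14A2 that start lies inside the gene as placed above, so the last bases of its sequence overlap the gene. OR14A2 lies at chr1:247748142-247748391 (minus strand), OR1L4 at chr9:122723740-122723989 (plus), OR2L13 at chr1:247936927-247937176 (plus) and OR1F1 at chr16:3187954-3188203 (plus).
OR14A2: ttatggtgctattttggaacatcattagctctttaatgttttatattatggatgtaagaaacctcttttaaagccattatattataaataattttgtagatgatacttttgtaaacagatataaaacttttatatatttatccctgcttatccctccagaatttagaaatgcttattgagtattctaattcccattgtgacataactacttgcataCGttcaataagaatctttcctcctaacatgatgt
OR1L4: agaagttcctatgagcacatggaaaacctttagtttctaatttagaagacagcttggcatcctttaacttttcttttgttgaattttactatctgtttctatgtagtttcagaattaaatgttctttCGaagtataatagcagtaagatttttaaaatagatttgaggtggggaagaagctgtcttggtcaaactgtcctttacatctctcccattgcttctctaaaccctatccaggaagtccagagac
OR2L13: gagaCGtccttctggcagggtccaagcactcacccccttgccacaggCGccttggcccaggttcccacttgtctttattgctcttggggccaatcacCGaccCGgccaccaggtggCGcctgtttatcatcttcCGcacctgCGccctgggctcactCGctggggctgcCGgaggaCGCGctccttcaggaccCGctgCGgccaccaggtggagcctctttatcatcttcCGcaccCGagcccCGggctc
OR1F1: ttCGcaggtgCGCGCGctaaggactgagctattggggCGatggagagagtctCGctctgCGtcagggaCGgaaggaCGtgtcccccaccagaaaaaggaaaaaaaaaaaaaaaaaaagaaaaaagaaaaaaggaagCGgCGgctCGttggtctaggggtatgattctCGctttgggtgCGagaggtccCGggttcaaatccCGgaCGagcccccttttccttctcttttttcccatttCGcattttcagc
The first 2 sequences hold 1 CG each, at GC contents of 27.6% and 35.2%. The third holds 16 CG at 65.6% GC and the fourth 18 CG at 51.2% GC. None of these 4 promoters, from 250 bases before to 50 after the start, had a peak in any of the 34 lists, although all 4 genes had peaks elsewhere in their windows. Another promoter of OR2L13, at chr1:248094934-248095183, held 1 CG at 41.6% GC and had a peak in 1 COLO320 DM list.

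Peaks at the receptor promoters were rare as a whole. Of the 185 promoters 28 had a peak in any list (15.1%), against 6.49% of all 21983, and none had one in more than 2 lists. Letters searched on both strands of the 250 bases upstream were TAATTA, the core bound by many homeodomain proteins, TATAAA, the TATA box, and the core site of EBF factors. TAATTA was present in 18.4% of receptor promoters and 3.16% of all promoters, and TATAAA in 31.4% and 9.03%. The EBF core was present in 1.08% and 1.22%. TAATTA and TATAAA are rich in A and T, as are the receptor promoters, and these matches are descriptions of sequence.

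Over the 176 genes with a known strand, peak summits were spread through the window. In PC3 DM the lists together had 0.219 summits per kb in the 2 kb upstream, 0.227 in the gene and 0.284 in the 2 kb downstream. The COLO320 DM lists had 0.176, 0.156 and 0.259. In both lines the downstream flank was the densest stretch. Summits were pooled over lists, so a recurrent site counts once for each list that has it. In COLO320 DM the downstream flanks held 91 summits, and the downstream sites of OR1L4 and OR13C8 occurred in 18 and 13 lists. The density without such sites was not computed, so the values do not describe the 176 genes evenly.

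Overlapping peaks of all lists merged into 674 sites in receptor windows. Of these, 562 occurred in 1 list, 88 in 2 to 4, 20 in 5 to 16 and 4 in 17 or more. The 4 most recurrent sites lay at OR14A2, OR1L4, OR1F1 and OR4K17, with 30, 26, 23 and 21 lists. Of the 24 sites in 5 lists or more, 18 occurred in both lines, 5 in COLO320 DM lists alone and 1 in PC3 DM lists alone. Some sites served several genes, since 60 lay in the windows of 2 or more receptor genes and 34 receptor windows overlapped another.

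Which receptor genes carried peaks in one line more often than in the other was asked with a Fisher exact test per gene over all protein-coding genes with at least 3 lists with and 3 without a peak. At equal list length 4711 genes could be tested and 13.3% of them passed an adjusted p of 0.05, 6.84% more often in COLO320 DM and 6.47% more often in PC3 DM. Of the receptor genes 25 could be tested, and 4 passed: OR4K17, OR1L4, OR1F1 and OR6J1, all with more COLO320 DM lists. The testable genes were chosen by having enough lists with a peak, so the 4 of 25 do not describe the 218. None passed in the direction of PC3 DM. A further 3 genes, OR13C8, OR10J1 and OR7E24, had an unadjusted p under 0.05, the last with more PC3 DM lists.

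OR4K17 lies in the chromosome 14 receptor cluster (chr14:20110739-20122199). Of the lists cut to equal length, it had a peak in 18 of 18 COLO320 DM lists and 2 of 16 PC3 DM lists, namely ecSE1 replicate 1 and ecSE6 replicate 2 (Fisher exact test, adjusted p = 1.23e-05). The best peaks covered 345 to 1404 bp of its window in COLO320 DM, with a median of 941 bp, and 174 and 496 bp in the 2 PC3 DM lists. The covered lengths overlapped through 1 PC3 DM list and the lowest COLO320 DM list. Most peaks fell within the gene at 2 neighbouring sites. The site chr14:20117114-20118531 occurred in 18 COLO320 DM and 3 PC3 DM lists. The site chr14:20118805-20119572 occurred in 12 and 2 lists.

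OR1L4 lies in the cluster on the long arm of chromosome 9 (chr9:122723990-122724925). It had a peak in 18 of 18 COLO320 DM lists and 5 of 16 PC3 DM lists at equal list length (Fisher exact test, adjusted p = 0.000558). The PC3 DM lists with one were ecSE2 replicate 3, all 3 of ecSE6 and ecSEcombo replicate 3. Covered lengths ran from 1 to 1565 bp in COLO320 DM, with a median of 1151 bp, and from 228 to 1433 bp in these 5 lists, so the lines overlapped. The value of 1 bp came from COLO320 DM ecSE1 replicate 1. Its site, chr9:122724820-122727471, overlaps the last bases of the gene, and the median summit lay 1215.5 bp past the end. With the gene taken without its flanks the call was lost.

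OR1F1 is on the short arm of chromosome 16 (chr16:3188204-3206556). It had a peak in 17 of 18 COLO320 DM lists and 4 of 16 PC3 DM lists at equal list length (Fisher exact test, adjusted p = 0.00139). The best peaks covered 0 to 1178 bp in COLO320 DM, with a median of 812 bp, and 200 to 724 bp in the 4 PC3 DM lists. Its site, chr16:3205805-3206993, reaches over the far end of the gene and occurred in 17 COLO320 DM lists and 6 PC3 DM lists. Where the site was called, the median peak width was 291 bp in PC3 DM and 812 bp in COLO320 DM. The call was lost with the 5000 best peaks and with q-values of 1e-05 or less.

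OR6J1 closes the chromosome 14 cluster (chr14:22630929-22644352) on the side away from OR4K17. It had a peak in 12 of 18 COLO320 DM lists and 2 of 16 PC3 DM lists at equal list length (Fisher exact test, adjusted p = 0.0222). In COLO320 DM the covered length ran from 0 to 993 bp with a median of 422.5 bp, and the PC3 DM values above 0 were 188 and 250 bp. The 6 COLO320 DM lists without a best peak included all 3 of the vector. The call was lost without flanks, with an overlap of at least 500 bp, and without the ecSEcombo libraries.

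**Figure D3:**
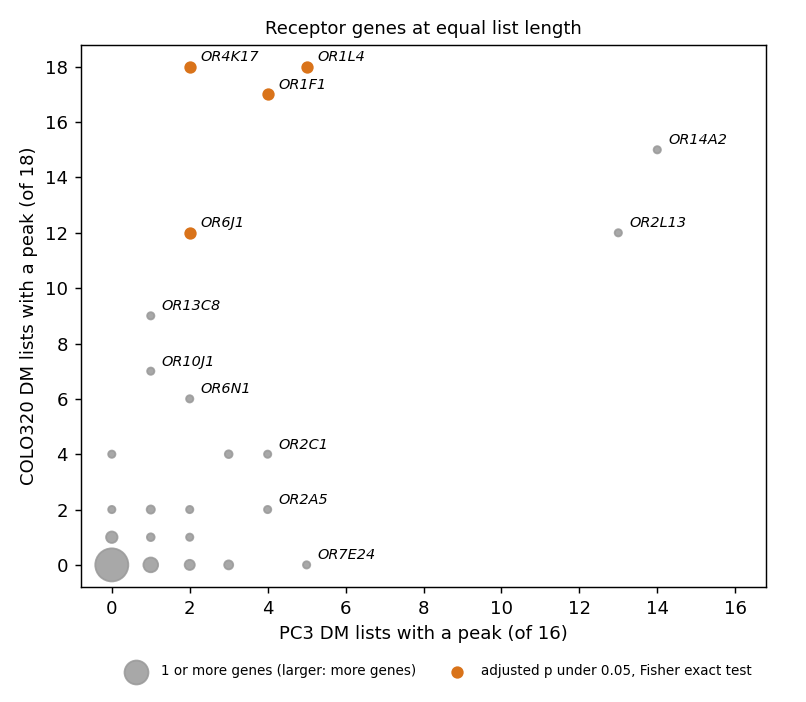
Each point is 1 or more receptor genes placed by the number of PC3 DM lists (x, of 16) and COLO320 DM lists (y, of 18) with a peak among the 9385 best; larger points hold more genes and orange marks an adjusted p under 0.05. OR4K17, OR1L4, OR1F1 and OR6J1 lie high on the left, OR14A2 at 14 and 15 lists, and OR7E24 at 5 and 0.

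OR13C8, of the OR13 run on chromosome 9 (chr9:104569168-104570130), came next. It had a peak in 9 COLO320 DM lists and 1 PC3 DM list at equal list length and missed the threshold (Fisher exact test, adjusted p = 0.0569). Its site, chr9:104571090-104572061, lay past the end of the gene and occurred in 13 COLO320 DM lists and 3 PC3 DM lists as deposited. OR10J1 (chr1:159397465-159440967) had 7 lists against 1 and also missed it (Fisher exact test, adjusted p = 0.153).

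**Figure D4:**
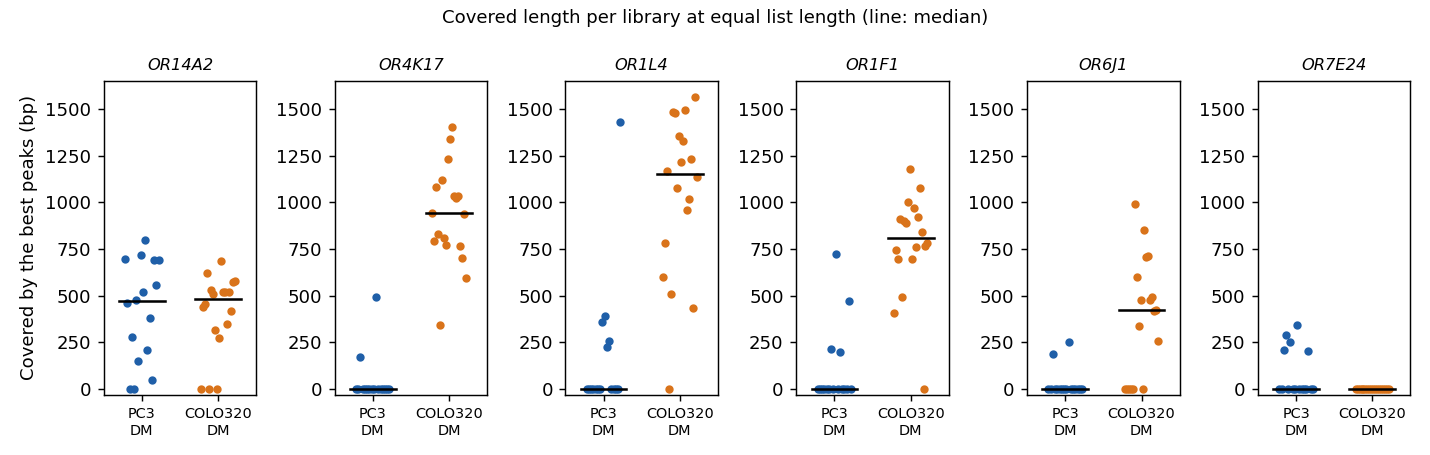
Base pairs of each gene's window covered by the 9385 best peaks, 1 point per library, with the median as a line. OR14A2 has like medians of 470.5 and 481.5 bp, OR4K17, OR1L4, OR1F1 and OR6J1 have medians of 941, 1151, 812 and 422.5 bp for COLO320 DM with PC3 DM at 0, and OR7E24 is above 0 in 5 PC3 DM lists.

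Peaks were wider in COLO320 DM as a whole, with a median width over libraries of 441 bp at equal list length against 272.5 bp in PC3 DM, and the part of this in the covered lengths was not tested. Best peaks covered 0.199% ± 0.0553 of the receptor windows in COLO320 DM (SD, n = 18) and 0.0983% ± 0.0294 in PC3 DM (SD, n = 16). Over the windows of all genes the values were 0.103% ± 0.0206 and 0.0829% ± 0.0207.

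In the lists as deposited 10067 genes could be tested, and 6.99% passed, 1.25% more often in COLO320 DM and 5.74% more often in PC3 DM. Of the receptor genes 89 could be tested and 5 passed. More often in COLO320 DM were OR4K17 (18 lists against 5), OR1F1 (18 against 7) and OR1L4 (18 against 8), with adjusted p of 0.00226, 0.0102 and 0.0196 (Fisher exact test). More often in PC3 DM were OR7E24 and OR2T12.

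OR7E24 belongs to family 7 on chromosome 19 (chr19:9206488-9252625). It had a peak in 10 of 16 PC3 DM lists and 1 of 18 COLO320 DM lists (Fisher exact test, adjusted p = 0.0193), and the COLO320 DM list was the one with 125214 peaks. With equal list lengths the counts were 5 and 0, short of the threshold (Fisher exact test, adjusted p = 0.0852). The best peaks covered 202 to 345 bp in those 5 lists. The peaks did not gather at a place, and no site in its window occurred in 4 lists or more. Both vector libraries of PC3 DM lacked a peak, while all 3 of ecSE1 had one. OR2T12, in the chromosome 1 cluster (chr1:248290139-248303424), had a peak in 7 PC3 DM lists and 0 COLO320 DM lists (Fisher exact test, adjusted p = 0.0364). This call was lost in 11 of 42 alternatives, among them leaving out any 1 of the 7 PC3 DM lists with a peak, which gave an adjusted p of up to 0.0603 (Fisher exact test). The best peaks included it in only 2 lists and could not be tested.

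In the lists as deposited, leaving out the ecSEcombo libraries left 2 receptor genes called, OR4K17 and OR1F1, where 2.29% of the 9134 genes tested passed. Without COLO320 DM ecSE1 replicate 2, the longest list, 11 receptor genes passed, 4 more often in COLO320 DM and 7 in PC3 DM, where 15.7% of 9488 genes passed. Both counts of receptor genes thus moved in the direction of the share over all genes, which was 6.99% with every library. OR4K17, OR1L4, OR1F1, OR7E24 and OR2T12 were among the 11 called without the longest list. Leaving out this list at equal list length kept the same 4 calls.

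Runs of receptor genes with gaps of at most 1 Mb formed 31 groups, of which 12 had 5 or more genes and together 185 of the 218. They differed in how many genes carried a peak, and their values are descriptions. The largest run, on chromosome 1 from OR2B11 to OR14I1 (chr1:247449118-248702766), held 43 genes, of which 37 had a peak in some list. Among the best peaks 7.56% ± 3.75 of its genes had a peak in PC3 DM and 4.65% ± 2.39 in COLO320 DM, and every list of both lines had at least 1. The other large run of chromosome 1, from OR10T2 to OR10J5, with 15 genes and OR10J1 as its most recurrent, gave 1.67% ± 2.98 and 5.19% ± 5.39.

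On chromosome 14 the run of 23 genes from OR11H2 to OR6J1 (chr14:19712936-22644352) gave 3.80% ± 4.73 in PC3 DM and 8.94% ± 2.78 in COLO320 DM. The 14 genes on chromosome 9 from OR1J2 to OR1K1 (chr9:122447433-122801073) gave 4.02% ± 5.20 and 8.73% ± 3.06. The 8 genes of the OR13 run on the same chromosome (chr9:104504263-104695462) gave 1.56% ± 4.27 and 9.03% ± 10.3. Genes with a peak in any list at equal list length numbered 12 of 23, 3 of 14 and 3 of 8 in these runs. Single genes account for much of the COLO320 DM values: OR4K17 and OR6J1 on chromosome 14, OR1L4 in the run from OR1J2, and OR13C8 in the OR13 run.

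Both runs of chromosome 19 had more PC3 DM lists. The 8 genes from OR2Z1 to OR7D4 (chr19:8721634-9252625), which include OR7E24, gave 7.81% ± 8.98 in PC3 DM and 0 in all 18 COLO320 DM lists. The 11 genes from OR7C1 to OR10H4 gave 5.11% ± 7.40 and 0.505% ± 2.14, with OR7C1 (chr19:14798515-14835185) in 6 PC3 DM and 2 COLO320 DM lists as deposited. The SD was larger than the mean in each of these values above 0.

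In the remaining runs few gene windows held a peak at equal list length. The 10 genes on chromosome 3 from OR5AC2 to OR5K2 had a peak in no list, although peaks between the genes were present in 15 PC3 DM and 13 COLO320 DM lists. There OR5K1 (chr3:98463201-98472924) had a peak in 3 lists as deposited. The 14 genes on chromosome 6 from OR2W1 to OR2H2, near the genes of the major histocompatibility complex, had a peak in 0.893% ± 2.44 of genes in PC3 DM and in 0 COLO320 DM lists, with OR2J1 (chr6:29099490-29102701) in 4 lists as deposited. The runs on chromosomes 7, 12 and 17, where OR6B1 (chr7:144000320-144008793), OR2AP1 and OR3A2 had the most lists, lay between 1.14% and 2.40% in both lines.

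**Figure D5:**
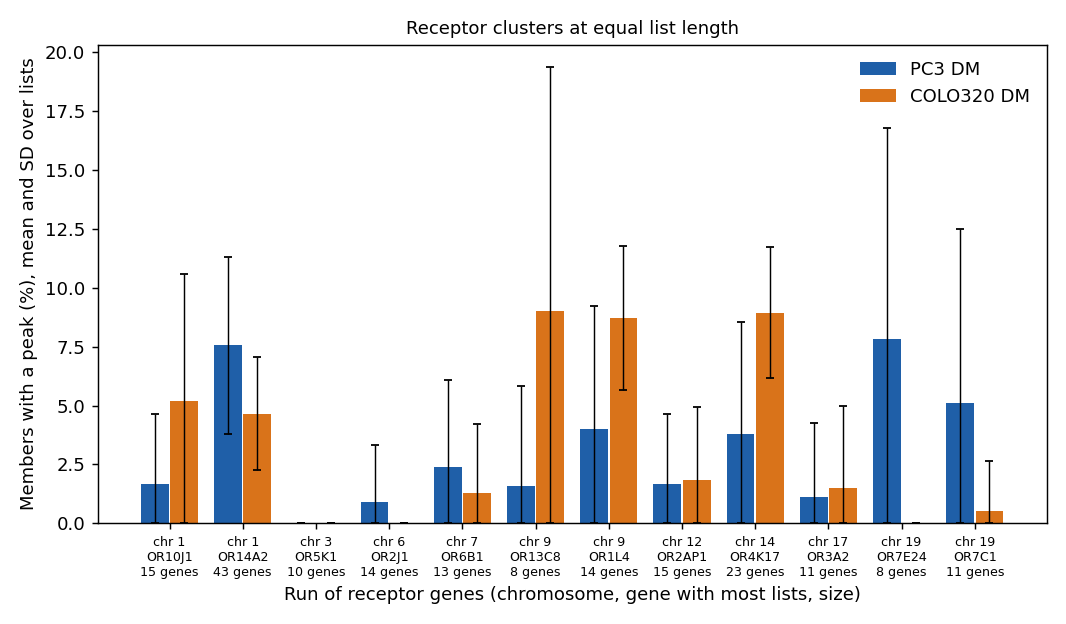
Percentage of the genes of each run of 5 or more receptor genes with a peak among the 9385 best, mean (bar) and SD (line, drawn down to 0 at most) over 16 PC3 DM and 18 COLO320 DM lists. The runs of OR4K17, OR1L4 and OR13C8 stand higher in COLO320 DM (8.94%, 8.73% and 9.03%), where these single genes account for much of the value. Those of OR7E24 and OR7C1 stand higher in PC3 DM (7.81% and 5.11%).

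By family, which groups receptors by sequence, the 7 genes of family 14 carried the most, with a peak in 17.0% of PC3 DM and 13.5% of COLO320 DM lists on average at equal list length. OR14A2 accounts for much of this. The 11 genes of family 7 gave 7.39% and 0. The 25 genes of family 1 gave 3.25% and 9.11%, and the 11 genes of family 13 gave 1.70% and 6.57%. OR1L4 and OR1F1 account for much of the COLO320 DM value of family 1, and OR13C8 for much of that of family 13. These values therefore largely restate single genes given above. The 14 genes of family 5 had 0 and 0.794%. Of the 52 genes without a peak in any list, 15 belonged to family 2, the largest with 63 genes, and 10 to family 4, with 26. They include OR4F5, OR4F29, OR4F16, OR4F3 and OR4F17, closely related genes near chromosome ends, where reads may match several places, and the part of this in the missing peaks was not tested. Not all OR4F genes lacked peaks: OR4F6 and OR4F15 on chromosome 15 had them in 4 PC3 DM lists together as deposited, and in 0 COLO320 DM lists.

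The perturbed libraries of each line were set against those with the empty vector. In PC3 DM 7812 genes could be tested, 71 of them receptor genes, and 0% passed (Fisher exact test with Benjamini-Hochberg adjustment). In COLO320 DM 4621 genes could be tested, 26 of them receptor genes, and again 0% passed. No receptor gene had an unadjusted p under 0.05 in either line. With 2 and 3 vector libraries the smallest p among all genes tested was 0.025 in PC3 DM and 0.00123 in COLO320 DM (Fisher exact test). A single gene with such a p could not pass the adjustment over this many genes. The lack of calls therefore does not show a lack of effect. OR6J1 in COLO320 DM had a peak in 14 of 15 perturbed lists and 1 of 3 vector lists as deposited (Fisher exact test, unadjusted p = 0.0564, adjusted p = 1). OR7E24 in PC3 DM had one in 10 of 14 perturbed and 0 of 2 vector lists (Fisher exact test, unadjusted p = 0.125, adjusted p = 1).

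The share of receptor genes with a peak at equal list length was 3.60% ± 0.860 in the 14 perturbed PC3 DM libraries and 3.90% ± 0.324 in the 2 vector libraries. In COLO320 DM it was 4.01% ± 1.14 in 15 perturbed and 3.98% ± 0.530 in 3 vector libraries. Group means ran from 3.21% ± 0.459 for PC3 DM ecSEcombo to 5.50% ± 0.795 for COLO320 DM ecSE2 (SD, n = 3 each). OR4K17, OR1L4 and OR1F1 had a peak in every COLO320 DM group's 3 lists as deposited. In PC3 DM OR1L4 had a peak in 3 of 3 ecSE6 lists and in 0 of 3 ecSE1 lists.

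Genes of odour signalling and other chemoreceptors were counted in the same way. The 16 genes of olfactory signalling included OMP, a marker of mature sensory neurons, GNAL and ADCY3, the G protein subunit and adenylyl cyclase of the cascade, and CNGA2, a subunit of its channel. At equal list length 6 of these 16 could be tested and 0 passed (Fisher exact test). None of the 6 had an unadjusted p under 0.05, and the smallest was that of ANO2, a chloride channel of the cascade, with 10 COLO320 DM and 4 PC3 DM lists (Fisher exact test, unadjusted p = 0.0921). OMP and CNGA2 had no best peak in either line. Of the 6 trace amine receptors and 3 vomeronasal receptors none could be tested at equal list length. Of the 25 bitter taste receptors 2 could be tested and 1 passed: TAS2R1 (chr5:9627347-9903876), with a peak in 15 of 16 PC3 DM and 3 of 18 COLO320 DM lists (Fisher exact test, adjusted p = 0.000321). The other, TAS2R4 (chr7:141776674-141781691), had 7 COLO320 DM and 0 PC3 DM lists and missed the threshold (Fisher exact test, unadjusted p = 0.00804, adjusted p = 0.0569).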

How the data were processed

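CUT&Tag was measured in 34 libraries, grouped by the sample titles. Peaks were called per library on hg38, per the labels and file headers, and the deposited lists name an FDR of 0.001. Per the submitters' processing notes, the tools were MACS2 2.2.7.1, bedtools, SAMtools, Trim Galore 0.6.6 and Bowtie2 2.3.5. For each peak the authors deposited a display score, a fold (a ratio to local background), −log10 of the p-value and of the q-value, and another column, the summit offset. Fold, −log10 q and summit were used to rank, place and describe peaks within a list, and were not compared between lists.

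Genes were RefSeq protein-coding genes of GRCh38.p14; promoters gave the strand for 176 receptor genes. Exons were not used here. Presence in a window (2 kb flanks, 1 bp overlap) was tested with Fisher's exact test, two-sided, Benjamini-Hochberg over all genes tested, on the lists as deposited and on their 9385 best peaks by q-value, then fold. Members and lists were chosen with earlier results of these data known. Named genes were those called, the 12 and 8 with the most lists (as deposited and at equal list length), OR4K17, OR7E24 and the top gene of each run. TAS2R1, TAS2R4, ANO2, genes listed without a peak and those called only with 10 kb flanks were named after their values were seen. On simulated data the equal-length test recovered 100% of complete separations and 72% of differences of 60 points among 4870 genes, and called 0 of 4670 unchanged genes. The test on lists as deposited recovered 100% and 51% among 9980 genes, and called 3 of 9780. The simulation drew unchanged genes independently in each library from their mean share over all lists. It held no differences between libraries in list length or quality, so its rates need not hold for the real lists. Alternatives are given in the closing section. Scripts ran under scipy 1.17.1, pandas 2.3.3, numpy 2.4.6, matplotlib 3.10.9 and Python 3.11.15.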

Additional observations from a re-analysis of the deposited data

How the results depend on the processing

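Shares over all genes tested stand in parentheses. At equal list length 4 receptor genes passed between the lines (13.3%). The count was 3 with q-values of 1e-05 or less (17.3%), an overlap of 500 bp (30.2%), the 5000 best peaks (17.3%) or no combination libraries (10.1%), and 2 without flanks (13.5%). With 10 kb on each side 11 passed (13.4%), 8 of them more often in COLO320 DM, and with the 1000 best peaks 0 passed (25.4%). In the lists as deposited 5 passed (6.99%). The count was 3 without flanks (7.38%), 14 with 10 kb on each side (7.21%; 4 more often in COLO320 DM, 10 in PC3 DM), 2 without the combination libraries (2.29%) and 10 without the 2 longest lists (12.7%; 5 in each direction). Leaving out each library in turn gave 4 to 5 calls at equal list length and 4 to 11 as deposited, where 11 came without COLO320 DM ecSE1 replicate 2 (15.7%). For perturbed against vector it gave 0 to 0.

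The share of receptor genes with a peak at equal list length moved in PC3 DM and COLO320 DM to 2.04% and 2.45% with q-values of 1e-05 or less, 0.373% and 1.73% with an overlap of 500 bp, 2.26% and 2.50% without flanks, 9.86% and 9.25% with 10 kb, 2.01% and 2.45% with the 5000 best peaks, and 0.459% and 0.331% with the 1000 best. As deposited the values were 7.48% and 6.65% with q-values of 1e-05 or less, 0.516% and 2.22% with an overlap of 500 bp, 8.57% and 5.89% without flanks, and 28.9% and 19.5% with 10 kb. Leaving out each library gave 3.55% to 3.70% and 3.89% to 4.07% at equal list length, and 11.9% to 14.1% and 7.61% to 9.55% as deposited. Windows and thresholds set these values by construction, and for the other changes the cause was not tested.

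Replicate numbers did not pair the libraries. The correlation of same-numbered libraries, within and across the lines, ran from -0.0527 to 0.0566 over 177 pairs. Over 352 pairs with different numbers it ran from -0.0924 to 0.0615. These values bear on the numbering alone and do not say that libraries shared no peaks. The test within replicate blocks gave 4 and 5 calls, the same genes as without the block. Of the single genes compared between lines under the alternatives, 1324 values kept their side of the threshold, 16 newly passed and 23 no longer passed. None that passed in the main or the alternative setting changed direction. Changes of direction in genes that passed in neither were not counted. The vector libraries alone could not be fitted, since 5 libraries cannot give 3 with and 3 without a peak.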

Other observations

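With 10 kb on each side of the gene, 11 receptor genes passed at equal list length (Fisher exact test at an adjusted p of 0.05), where 13.4% of the 6239 genes tested passed. Besides the 4 of the report, OR10G2, OR13C9, OR14A16 and OR4K2 had a peak more often in COLO320 DM, and OR14I1, OR5K4 and OR7E24 more often in PC3 DM. OR5K4 had no peak within 2 kb in any list. OR14I1 and OR14A16 lie in the same run of chromosome 1 and went in opposite directions.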
